A study of Mus musculus with 11 samples.

Results

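Prefoldin is a chaperone complex of the cytosol, built from alpha-class subunits (VBP1, also called PFDN3, and PFDN5) and beta-class subunits (PFDN1, PFDN2, PFDN4 and PFDN6). The assembled particle hangs its coiled-coil arms over an unfolded chain and hands newly made actin and tubulin to the chaperonin TRiC. The transcripts of its 6 subunit genes were described in single 8-cell mouse embryos that carried or lacked PRDM10, a zinc finger transcription factor. The 6 genes were found by name among the 54146 genes of the deposited tables, all 6 were present, and all 6 passed the filter on low counts. They were selected on a measured value of the same embryos, since the set was drawn up around the fall of Pfdn4 between mutant and control embryos. That fall is therefore given below as a description without a test, and only the other 5 subunits carry tests of the mutant against control comparison.

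The 11 embryos were of strain C57BL/6, came from natural matings of Prdm10 Δ/+ animals, and were taken from the oviduct at E2.5. Mutant embryos (Prdm10 Δ/Δ, labelled Prdm10 KO, n = 5) lacked both functional alleles, and control embryos (labelled Prdm10 WT/HET, n = 6) pooled Prdm10 +/+ and Prdm10 Δ/+ embryos that the labels do not separate. The embryos had been sorted into these groups by amplifying exon 5 of Prdm10 from their cDNA. Each library was one whole embryo, isolated and processed in 1 of 2 batches: batch 1 with 16 cycles of PCR pre-amplification (control replicates 4, 5 and 6, mutant replicates 4 and 5) and batch 2 with 13 cycles (control replicates 1, 2 and 3, mutant replicates 1, 2 and 3). Litters are not given, so embryos may share a mother, and fewer cells cannot be told apart from less RNA per cell.

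The libraries held between 3534735 and 8265840 summed expected counts, the lowest being control replicate 2. That library also stood apart in carrying both Xist (4474 normalised counts) and Y-linked transcripts (188 summed normalised counts), whereas in each other embryo one of these was below 20. All 7 markers of the 8-cell embryo were above 1 TPM (a level corrected for gene length and library depth) at the median, Dppa5a being the highest, and their summed level was 1697 to 2758 TPM in controls and 2742 to 3310 TPM in mutants. Summed markers of other sources were lower. Cumulus cells reached at most 1.11 and 11.4 TPM in controls and mutants, with Foxl2 and Has2 at 0 in every embryo. Oviduct epithelium reached at most 25.2 and 32.4 TPM, and blood at most 33.4 and 9.62 TPM. Oocyte and maternal markers reached at most 102.6 and 72.8 TPM, with all 4 above 1 TPM at the median. Prdm10 itself lay between 11.1 and 24.8 TPM in controls and between 4.88 and 8.16 TPM in mutants, without overlap on TPM. On normalised counts its groups overlapped, with control replicate 5 at 123.9 and mutant replicate 2 at 202.0. On counts its log2 fold change was -0.66 ± 0.26 (SE) and did not pass the test (DESeq2, adjusted p = 0.215). The effective length of Prdm10, by which TPM divides, also differed, 2565 to 3357 bases in controls against 4348 to 5051 in mutants.

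Pfdn4 was the 1 subunit gene that the study lists as bound by PRDM10 in mouse embryonic stem cells. None of the other subunits was on that list. In GRCm38 the gene lies on the plus strand at chr2:170496428-170519123 and has 7 annotated transcripts with separate 5′ ends. The most upstream transcript starts at 170496428, and the next one starts 14.8 kb downstream at 170511235. The interval listed as bound holds the downstream start and not the upstream one.

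The probes that the study used to assay PRDM10 binding are shown because they give the letters that were searched for around these starts, with the bases altered in the mutated probe in capitals (5′ to 3′):
wild-type probe: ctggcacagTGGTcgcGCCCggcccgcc
mutated probe: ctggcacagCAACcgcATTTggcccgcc

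The altered letters give the form TGGTNNNGCCC, which was searched on both strands. RefSeq promoter windows were read for 5 subunit genes, Pfdn1 being left out (GRCm38.p6, 250 bases before to 50 bases after the start). None of these windows held the form, and 1.45% of all 32851 such windows held it. The single window of Pfdn4 among them belongs to the upstream start, so the bases before the downstream start were not searched here. A looser form, TGGTNNNNNCC, was added after the full form had given no match, and 13.8% of the promoter windows held it, again none of those of these 5 subunit genes. In the first 300 bases of the Pfdn4 transcript that begins at the downstream start (ENSMUST00000063682.11) the looser form occurred 4 times. On the plus strand it was in the 5′ UTR of the first exon at chr2:170511412-170511422 and at chr2:170511432-170511442, and it occurred 2 times on the minus strand. The minus strand match at chr2:170511242-170511252 also lies inside the interval listed as bound. The pair on the plus strand is shown because it lies just before the start codon, with 23 and 3 bases in between, and inside the bound interval (letters of the GENCODE transcript, plus strand, 5′ to 3′, matched bases in capitals):
Pfdn4 site 1: cgagTGGTTTTCCCCcgcg
Pfdn4 site 2: cccgTGGTTCAGTCCaaga

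Among 58200 protein-coding transcripts with at least 300 bases, 15.8% held the looser form at least once in their first 300 bases. It was held at least 4 times by 6 of them (0.0103%), that Pfdn4 transcript included. The count of 4 was taken from this transcript, the one of Pfdn4 with the most matches, so that share is no test. Of the other 6 transcripts of Pfdn4, 1 held it once and 5 did not hold it. Of the 8 transcripts of Pfdn5, a gene absent from the bound list, 6 held it 2 times in the same window, and no transcript of Pfdn1, Pfdn2, Pfdn6 or Vbp1 held it. A match of letters is a description of the sequence, and PRDM10 binding was not measured in these embryos.

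Pfdn4 encodes a beta-class subunit. Its level in control embryos was 65.9, 48.8 and 64.8 TPM in batch 2 and 39.1, 51.1 and 44.0 TPM in batch 1. Its level in mutant embryos was 4.84, 5.66 and 2.06 TPM in batch 2 and 5.83 and 5.31 TPM in batch 1. Every mutant lay below every control, by a wide gap between 5.83 and 39.1 TPM, and this held inside each batch. The group means were 52.3 ± 10.9 TPM (SD, n = 6) in controls and 4.74 ± 1.55 TPM (SD, n = 5) in mutants.

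The counts behind these levels were small in the mutants but not 0. Controls had 243, 95 and 225 expected counts of Pfdn4 in batch 2 and 118, 97 and 161 in batch 1. Mutants had 25, 21 and 7 in batch 2 and 19 and 12 in batch 1, and the count of 7 has an exact Poisson 95% interval of 2.81 to 14.4, which covers counting error only. Some Pfdn4 transcript was thus detected in each of the 5 mutant embryos, at 3.44 to 13.0% of the mean TPM of the controls of their own batch. On the scale of normalised counts the log2 fold change was -3.42 ± 0.32 (SE), which is 0.0936 of the control level. It was -2.91 ± 0.53 in batch 1 alone and -3.79 ± 0.49 in batch 2 alone. With any one embryo left out, control replicate 2 included, it was between -3.64 and -3.21. These values describe the fall on which the set was chosen and do not test it.

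Of the 2507 distinct 31-base stretches in the transcripts of Pfdn4, 608 also occur in other genes, Gm16796, Cyp24a1 and Gm15927 holding the most. The posterior SD that RSEM gives for its count was at most 0.410 in any embryo. The genes that overlap Pfdn4 on the opposite strand, Gm16796 and Cyp24a1 (the vitamin D 24-hydroxylase), were at 0 counts in all 11 embryos, and Gm15927, on another chromosome, was at 0 to 7.97 expected counts. The effective length of Pfdn4 overlapped between groups, at 590 to 695 bases in controls and 534 to 791 bases in mutants. The nearest measured genes on either side were not called (DESeq2): the pseudogene Gm14269, 32.6 kb away, had a log2 fold change of -0.21 ± 0.57 (SE, adjusted p = 0.943), and Fam210b, 1826.4 kb away, had one of 0.97 ± 0.52 (SE, adjusted p = 0.473).

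**Figure D1:**
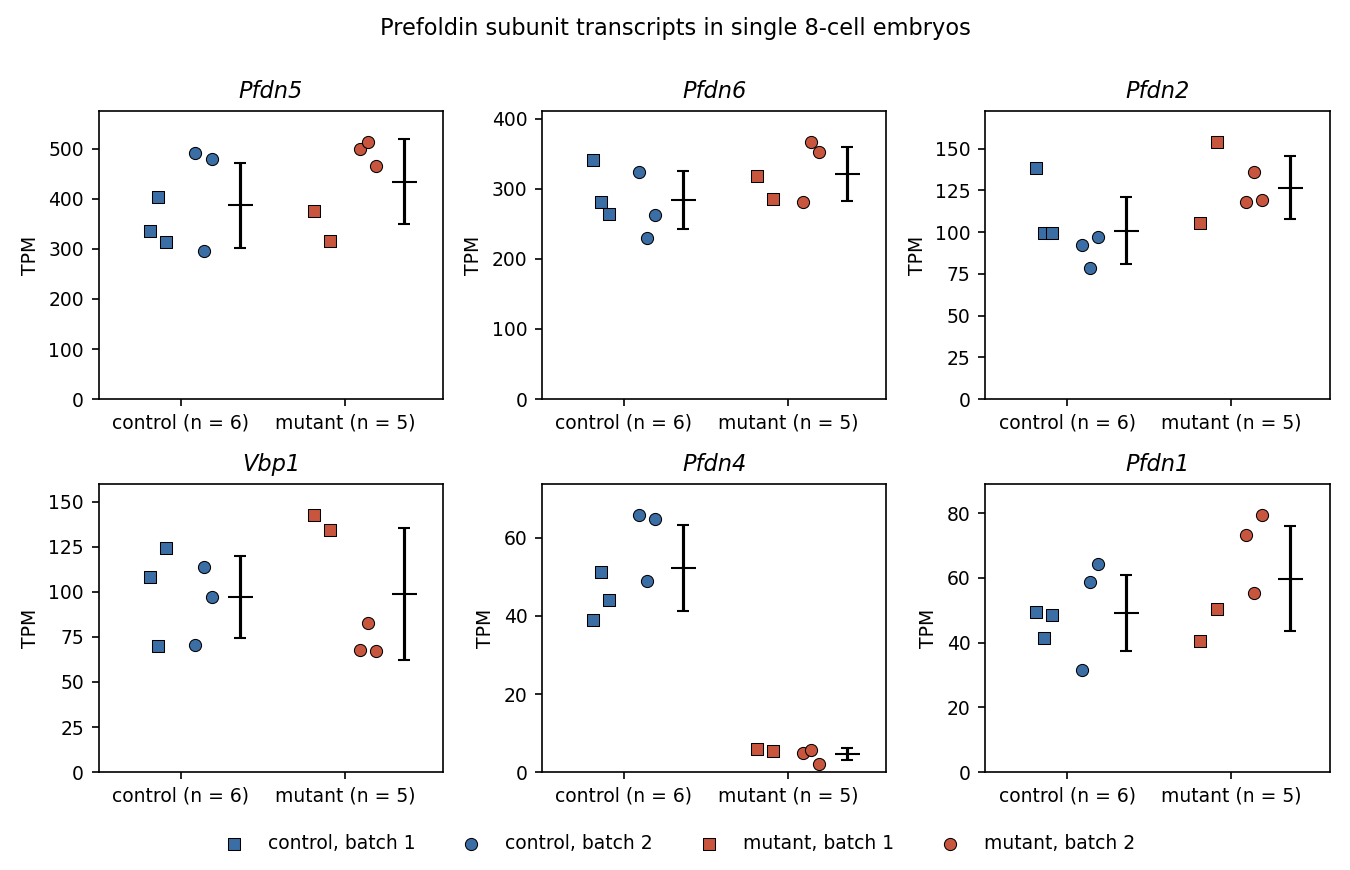
Level in TPM (y axis from 0, a separate scale for each gene) of the 6 prefoldin subunit genes in each embryo, with squares for batch 1, circles for batch 2, and the black bar and whiskers for the group mean ± SD. Pfdn4 is between 39.1 and 65.9 TPM in the 6 controls and between 2.06 and 5.83 TPM in the 5 mutants, while the groups overlap for each of the other 5 genes.

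None of the other 5 subunits passed the test between mutant and control embryos that was fitted across all genes. In that test 1.45% of the 10448 genes were called in either direction and 0.881% were called lower (DESeq2, adjusted p below 0.05). Of the 5 subunits besides Pfdn4, 0 were called in either direction, 0 had an unadjusted p below 0.05 beside 11.9% of all genes, and edgeR called 0 beside 0.271% of all genes. All 5 log2 fold changes were above 0, between 0.01 and 0.29, with a median of 0.18 beside -0.0012 over all genes tested. A count of 0 of 5 is near the background of 1.45% and is no result about these genes by itself, so each is given below with the interval of its difference.

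Pfdn2, a beta-class subunit gene at chr1:171345670-171359254 on the plus strand, had the highest estimate of the 5. Controls had 92.3, 78.6 and 97.3 TPM in batch 2 and 138.3, 99.6 and 99.2 TPM in batch 1. Mutants had 117.8, 136.0 and 119.2 TPM in batch 2 and 105.5 and 154.1 TPM in batch 1. The 3 mutants of batch 2 were all above the 3 controls of that batch, and in batch 1 the groups overlapped. On normalised counts the batch 2 groups overlapped too, with controls up to 449.9 and mutants from 400.7. The log2 fold change was 0.29 ± 0.18 (SE, 95% interval -0.053 to 0.64, DESeq2 adjusted p = 0.543).

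Pfdn6, a further beta-class subunit gene (chr17:33938821-33940343, minus strand), was among the more abundant members. Controls had 323.7, 230.2 and 261.9 TPM in batch 2 and 340.4, 281.4 and 263.2 TPM in batch 1. Mutants had 281.1, 366.9 and 352.1 TPM in batch 2 and 318.1 and 284.9 TPM in batch 1. The groups overlapped in both batches. Its log2 fold change was 0.18 ± 0.15 (SE, 95% interval -0.11 to 0.46, DESeq2 adjusted p = 0.707), and 0.11 without control replicate 2.

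Pfdn5, an alpha-class subunit gene (chr15:102326116-102331873, plus strand) whose protein is also known as the MYC-binding factor MM-1, had the highest mean level of the 6. Controls had 492.4, 295.8 and 480.1 TPM in batch 2 and 336.2, 403.1 and 314.6 TPM in batch 1. Mutants had 499.2, 513.9 and 465.95 TPM in batch 2 and 375.2 and 316.5 TPM in batch 1. The mutants lay inside or just above the range of the controls. The log2 fold change was 0.058 ± 0.17 (SE, 95% interval -0.27 to 0.39, DESeq2 adjusted p = 0.948). Part of its exon sequence, 11.8%, is shared with Myg1 on the same strand, and Myg1 was at 58.9 to 86.9 TPM in controls and 57.5 to 103.0 TPM in mutants. Pfdn5 also shares sequence with the pseudogene Gm5644, and the posterior SD of its count reached 2.75, the highest of the 6 genes.

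Pfdn1 is a beta-class subunit gene (chr18:36403676-36454524, minus strand), at a level near that of Pfdn4 in controls. Controls had 31.6, 58.8 and 64.4 TPM in batch 2 and 49.5, 41.6 and 48.4 TPM in batch 1. Mutants had 73.3, 55.3 and 79.5 TPM in batch 2 and 40.6 and 50.4 TPM in batch 1. The groups overlapped in both batches, with 2 of the 3 batch 2 mutants above all controls. Its estimate on the log2 scale was 0.22 ± 0.23 (SE, 95% interval -0.23 to 0.68, DESeq2 adjusted p = 0.795), and it was -0.034 in batch 1 alone. With 1 embryo left out it ran from 0.061 (without control replicate 1) to 0.33 (without mutant replicate 4).

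Vbp1, the other alpha-class subunit gene, had the estimate closest to 0. Controls had 70.4, 113.6 and 97.0 TPM in batch 2 and 108.4, 69.8 and 124.2 TPM in batch 1. Mutants had 67.5, 82.5 and 67.4 TPM in batch 2 and 142.7 and 134.2 TPM in batch 1. On TPM both batch 1 mutants were above all controls and 2 of the 3 batch 2 mutants were below all controls. On normalised counts the latter did not hold, since the lowest control was at 459 and the lowest batch 2 mutant at 506. The log2 fold change was 0.0097 ± 0.23 (SE, 95% interval -0.43 to 0.45, DESeq2 adjusted p = 0.996) over both batches, 0.45 ± 0.30 in batch 1 alone and -0.35 ± 0.28 in batch 2 alone.

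**Figure D2:**
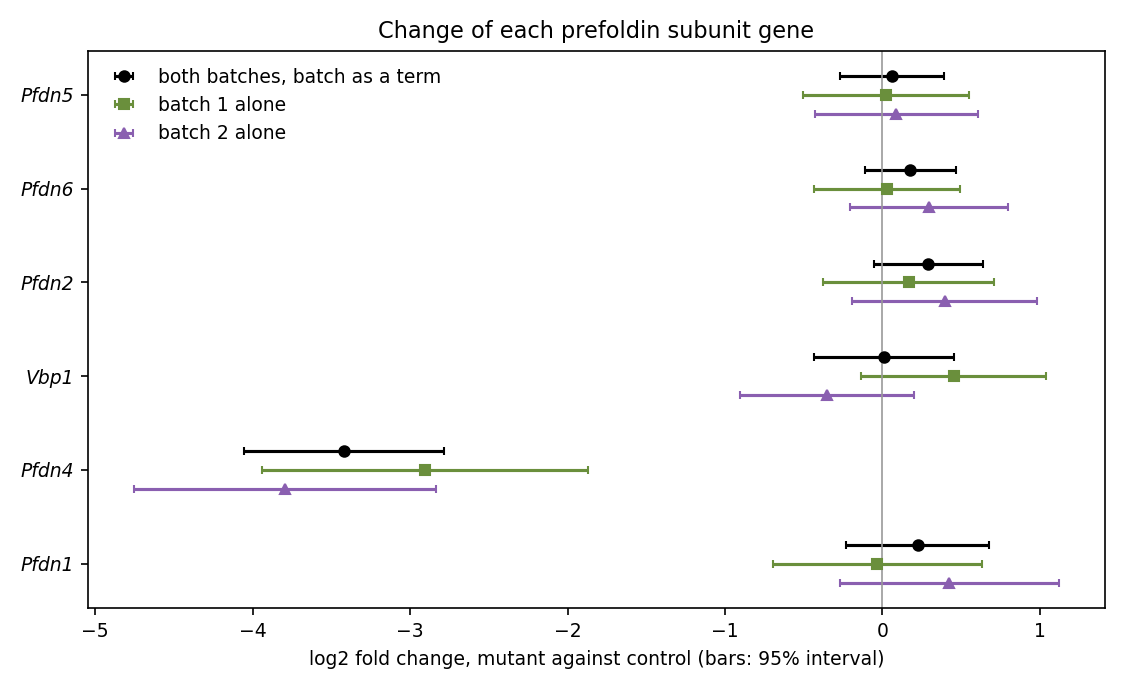
Log2 fold change between mutant and control embryos (x axis) for each subunit gene, as points with 95% intervals, over both batches with batch as a term and in each batch alone. The intervals of the 5 genes besides Pfdn4 include 0 in all 3 fits. Pfdn4, shown without a test, lies at -3.42, and its intervals are drawn as a description only because the set was chosen on its fall.

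The upper and lower bounds put a size on what these embryos could have shown. Over both batches the lowest bound among the other 5 subunits was that of Vbp1, -0.43, a fold of 0.741, and the highest was that of Pfdn1, 0.68. The difference between the batches' mutant effects was tested as an interaction for the 5 genes. Of these 0 were called, beside 0.0573% of all genes (DESeq2), and 0 had an unadjusted p below 0.05, beside 4.31% of all genes. Vbp1 had the largest interaction, 0.80 ± 0.41 on the log2 scale (SE, batch 1 effect minus batch 2 effect, unadjusted p = 0.0530, DESeq2 adjusted p = 1.00).

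Vbp1 is on the X chromosome (chrX:75514299-75534942, plus strand), and its level went with that of Xist, the RNA that coats the X chromosome undergoing silencing in females. The 4 embryos with fewer than 20 normalised counts of Xist (control replicates 1 and 5, mutant replicates 1 and 3) had 459 to 527 normalised counts of Vbp1. The 7 embryos with 1383 or more counts of Xist had 645 to 918 of Vbp1. The ranges did not overlap, and each held mutants and controls. How many other genes, on the X chromosome or elsewhere, separate in the same way was not counted. It is therefore open whether the separation is particular to Vbp1. Both batch 1 mutants and 1 of the 3 batch 2 mutants had high Xist, against 2 of the 3 controls in each batch. Uxt, an X-linked gene for a subunit of the prefoldin-like complex, had 203 to 264 normalised counts in the 4 embryos and 265 to 478 in the 7. Vbp1 had a log2 fold change of -0.055 when the Xist and Y-linked levels entered the fit. These values are a description with no test, and their part in the opposite Vbp1 estimates of the batches was not tested.

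**Figure D3:**
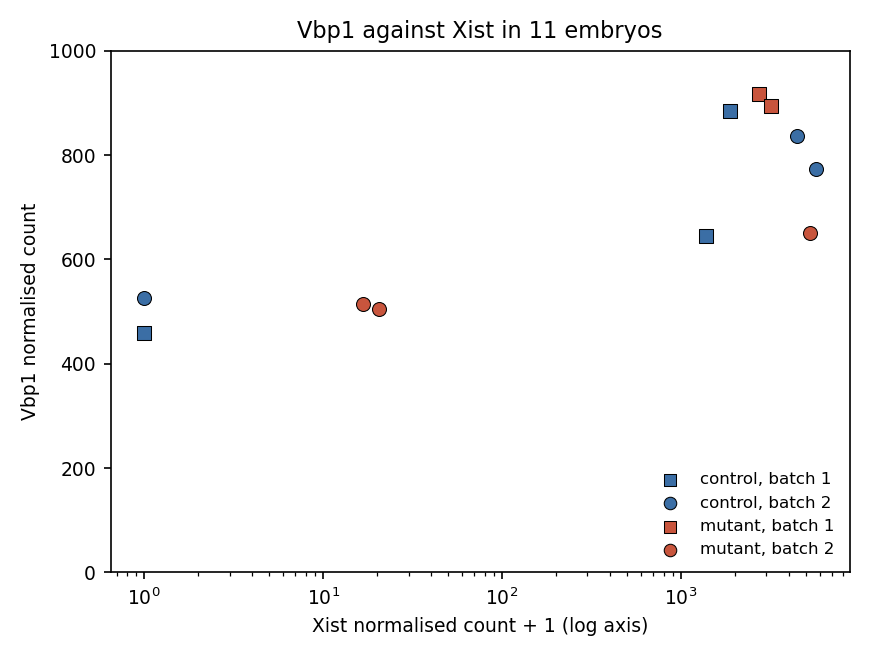
Normalised count of Vbp1 (y axis) against the normalised count of Xist plus 1 (x axis, log scale) in the 11 embryos, coloured by group, with squares for batch 1 and circles for batch 2. The 4 embryos with little Xist sit at 459 to 527 and the 7 with high Xist at 645 to 918, with mutants and controls in both.

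The levels of the 6 genes were compared as TPM, which is corrected for length. Pfdn5 and Pfdn6 were the highest pair in all 11 embryos, and the order of the others varied. In controls the means ± SD (n = 6) were 387 ± 85.1 for Pfdn5, 283 ± 41.4 for Pfdn6, 101 ± 19.9 for Pfdn2, 97.2 ± 22.8 for Vbp1, 52.3 ± 10.9 for Pfdn4 and 49.0 ± 11.8 for Pfdn1. Pfdn2 and Vbp1 could not be separated by their spread, nor could Pfdn4 and Pfdn1, and Pfdn5 and Pfdn6 overlapped. In mutants (n = 5) the means were 434 ± 85.0 for Pfdn5, 321 ± 38.7 for Pfdn6, 127 ± 18.8 for Pfdn2, 98.8 ± 36.8 for Vbp1 and 59.8 ± 16.2 for Pfdn1. Pfdn4 was the lowest of the 6 in 3 of 6 controls, with Pfdn1 below it in the other 3, and it was the lowest in all 5 mutants. Vbp1 was below Pfdn1 in mutant replicates 1 and 3 and above it in the other 9 embryos.

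The sum over the 6 subunits overlapped between the groups, and the part held by Pfdn4 did not. The 6 genes together came to 970 ± 99.3 TPM (SD, n = 6) in controls and 1045 ± 83.9 TPM (SD, n = 5) in mutants. Without Pfdn4 the sums were 918 ± 93.2 and 1040 ± 84.3 TPM, and their ranges, 777 to 1010 and 940 to 1155 TPM, overlapped. Inside batch 2 all 3 mutants (1039 to 1155 TPM) were above all 3 controls (777 to 1010 TPM), and in batch 1 the groups overlapped. This difference was not tested. Pfdn4 held 5.38 ± 0.876% of the sum in controls (3.86 to 6.12%) and 0.459 ± 0.159% in mutants (0.190 to 0.590%). The ratio of Pfdn4 to Pfdn1, the subunit nearest to it in controls, was between 0.789 and 2.09 in controls and between 0.0259 and 0.144 in mutants.

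**Figure D4:**
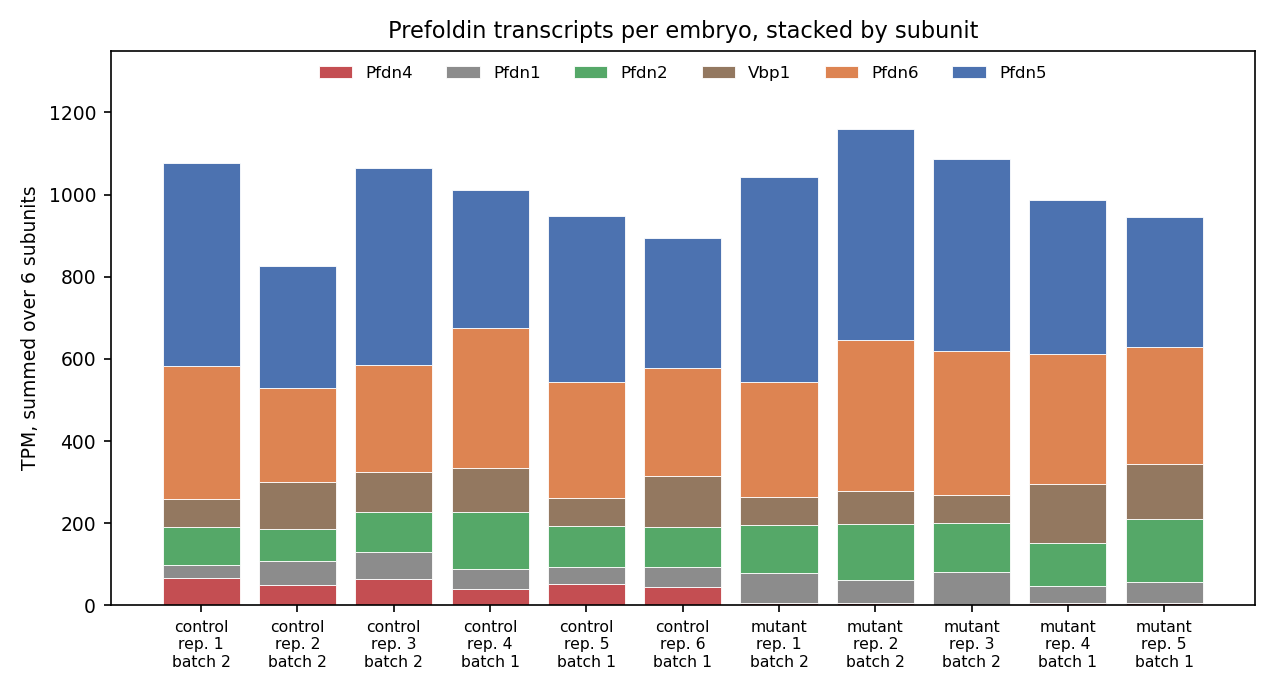
TPM of the 6 subunit genes stacked for each embryo (y axis from 0), with controls on the left and mutants on the right. The stacks reach 826 to 1076 TPM in controls and 945 to 1160 TPM in mutants, and the Pfdn4 segment at the base takes 3.86 to 6.12% of the control stacks and 0.190 to 0.590% of the mutant stacks.

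Batch was compared as a second source of variation. Between the batches 27.9% of all genes were called, and 0 of the 6 subunits were (DESeq2), with 2 of 6 at an unadjusted p below 0.05, beside 39.7% of all genes. edgeR also called 0 of the 6, beside 19.7% of all genes. Those 2 were Pfdn1, lower in batch 1 by a log2 fold change of -0.57 ± 0.23 (SE, DESeq2 adjusted p = 0.0561), and Pfdn5, -0.41 ± 0.17 (SE, DESeq2 adjusted p = 0.0592). Both stood close to the threshold, and without control replicate 1 Pfdn1 passed it (-0.74, DESeq2 adjusted p = 0.00133). Without control replicate 2 Pfdn5 passed it (-0.51, DESeq2 adjusted p = 0.0110). Pfdn4 had a batch difference of -0.40 ± 0.31 (SE, DESeq2 adjusted p = 0.386).

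The genes whose pattern over the 11 embryos was most like that of Pfdn4 were not prefoldin genes. Likeness was the root mean square difference of log2 normalised counts, centred on the controls of each batch, over 10488 genes. This measure mostly follows the size of the change in mutants, the value on which the set was chosen. The order is therefore a description of genes with a similar fall and supports nothing about Pfdn4. The nearest was Tcp11l2 at 0.63, followed by 2410006H16Rik, a noncoding RNA gene, at 0.72, Selenow, which encodes a small selenoprotein, at 0.74, Eef1d, a subunit of the translation elongation factor complex, at 0.84, and Rasl11a, a small GTPase gene, at 0.90. Tcp11l2 rests on few counts, 10 to 58 in controls and 0 to 4 in mutants, and its place with another value than the 1 added before the logarithm was not computed. Tcp11l2, 2410006H16Rik, Selenow and Eef1d were on the list of genes bound by PRDM10, and Rasl11a was not. These 5 genes were picked for a fall like that of Pfdn4. The share of all tested genes on that list, or of all genes called lower, was not computed, so this membership is a description only. Selenow fell from 150 to 325 TPM in controls to 8.62 to 19.1 TPM in mutants, and Eef1d from 362 to 641 TPM to 55.2 to 95.5 TPM. The other 5 subunits ranked between 4081, for Vbp1, and 7449, for Pfdn1, in this order. Their small changes in mutants kept them from ranking near Pfdn4 by this measure.

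The genes that work with prefoldin were read in the same fit, which called 1.45% of all genes. TRiC, the ring chaperonin that receives chains from prefoldin, had 0 of its 9 measured subunit genes called, with 6 of 9 below 0 and a median log2 fold change of -0.055. Cct8, Cct7 and Cct3 had values of -0.03, 0.25 and 0.02, none of which passed. The prefoldin-like complex, which shares PFDN2 and PFDN6 with prefoldin, had 0 of 3 called and a median of -0.18, which was -0.052 with limma on log2(TPM + 1). R2TP, an assembly chaperone that binds the prefoldin-like complex, had 0 of 6 called with its partners and a median of -0.019. The phosducin-like proteins, which bind TRiC, had 0 of 3 called and a median of -0.061, and 1 of them, Txndc9, had an unadjusted p below 0.05 (-0.47 ± 0.17, SE, DESeq2 adjusted p = 0.188), beside 11.9% of all genes. The median over all genes tested was -0.0012, and edgeR called 0 in each of these lists, beside 0.271% of all genes.

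The clients of the pathway gave 1 call, in the tubulins. Of 14 tested tubulin genes 1 was called lower, Tubb5, a beta-tubulin gene, beside 0.881% of all genes. Of the 14 log2 fold changes 11 were below 0, beside 50.2% over all genes tested, and their median was -0.38. Tubb5 was at 55.4, 22.9 and 82.4 TPM in controls of batch 2 and at 55.4, 63.9 and 77.0 TPM in controls of batch 1. It was at 31.1, 40.3 and 31.2 TPM in mutants of batch 2 and at 26.8 and 21.4 TPM in mutants of batch 1. Control replicate 2 lay among the mutants, and the other 5 controls were above all of them. The log2 fold change was -1.02 ± 0.29 (SE, DESeq2 adjusted p = 0.0437, edgeR adjusted p = 0.263). The estimate was -1.45 in batch 1 alone (DESeq2 adjusted p = 0.000605) and -0.68 in batch 2 alone (DESeq2 adjusted p = 0.773), and it ran from -1.25 to -0.81 with 1 embryo left out. The call was lost in 16 of 25 other ways of fitting it, 9 of the 11 fits without one embryo among them. It was kept without control replicate 2 (adjusted p = 7.19e-06) and without mutant replicate 2 (adjusted p = 0.0342).

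At an unadjusted p below 0.05 there were 3 of the 14 tubulin genes, beside 11.9% of all genes, the others being Tubb4b (-0.39 ± 0.17, SE, DESeq2 adjusted p = 0.320) and Tubb6 (-0.71 ± 0.26, SE, DESeq2 adjusted p = 0.180). The most abundant, Tubb4b and Tuba1b, had mean levels of 426 and 122 TPM in controls and 323 and 95.02 TPM in mutants. Of 6 actin genes, 2 passed the filter on low counts. Both had higher estimates in mutants and neither was called: Actb 0.43 ± 0.23 (SE, DESeq2 adjusted p = 0.481) and Actg1 0.67 ± 0.25 (SE, DESeq2 adjusted p = 0.183). Of the 2, Actg1 had an unadjusted p below 0.05, beside the same 11.9%. The cofactors that fold tubulin after TRiC had 0 of 6 called, and a median of -0.21, which was -0.039 with limma on log2(TPM + 1). Their most abundant members, Tbcb, Tbca, Tbcc and Tbce, had log2 fold changes of 0.043, -0.16, -0.58 and 0.20. edgeR called 0 in all of these lists, tubulins included, beside 0.271% of all genes.

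**Figure D5:**
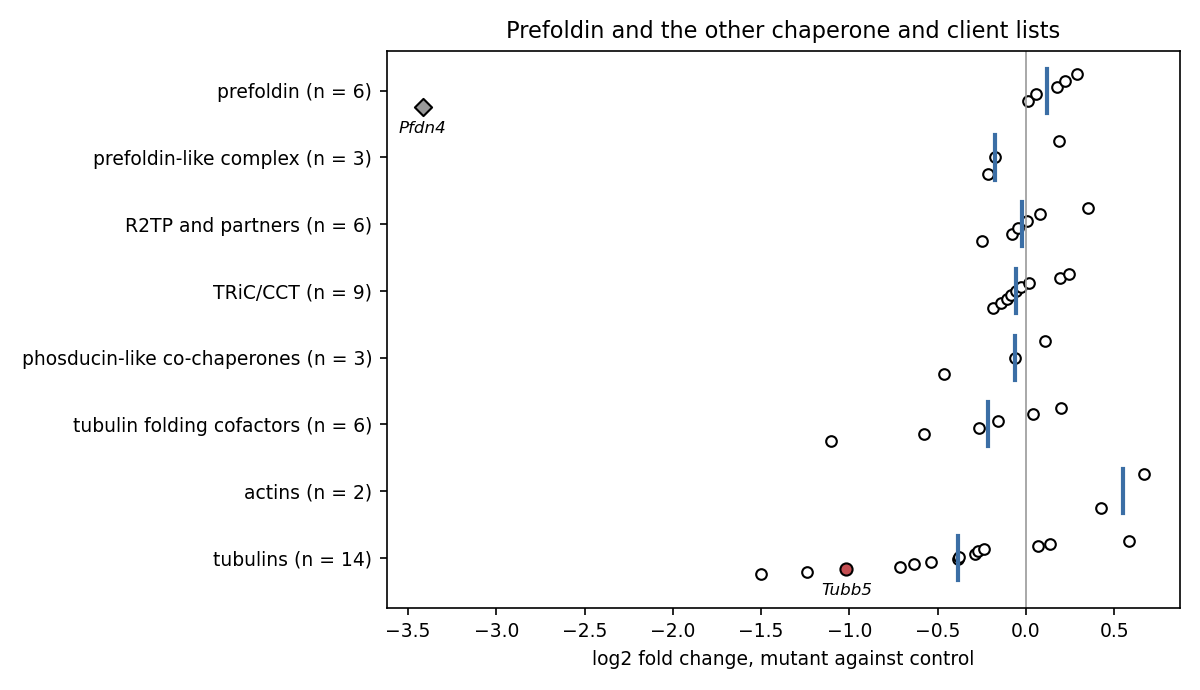
Log2 fold change between mutant and control embryos (x axis) of each tested gene, by list. Called genes are filled in red, and Pfdn4 is a grey diamond since it is shown without a test. The blue bar is at the median of the list and the grey line at the median of all genes tested. Pfdn4 is at -3.42, and Tubb5 at -1.02 is the called gene.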

How the data were processed

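Single embryos were sequenced from oligo-dT primed cDNA (Smart-seq2, single-end, no strand kept and no molecular identifiers). Per the labels and the study's methods the authors mapped reads to GRCm38.p6 with STAR 2.6.0c and quantified genes with RSEM. The deposited values used were expected counts, which need not be whole, and TPM, which the authors' RSEM run divided by effective length and scaled to a fixed library total. RSEM's effective lengths, posterior SD of counts and TPM interval bounds were read as deposited. The authors' table of fold changes and p-values was not used.

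Expected counts were rounded to whole numbers and fitted over all genes with DESeq2 1.42.0 (R 4.3.3), batch and group as terms, a Wald test and Benjamini-Hochberg adjustment. The tool, the minimum mean normalised count of 10 and the adjusted p threshold of 0.05 follow the study's methods. The authors' model terms are not given in the sources used here. Intervals are 95% Wald intervals. Counting intervals are exact Poisson and cover counting error only. edgeR 4.0.16 quasi-likelihood, limma 3.58.1 on log2(TPM + 1) and the other alternatives are in the closing section. The fits were tested on simulated counts.

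The members and lists were chosen with earlier results of these data known. The text names the 6 members, Prdm10, called genes of the lists, the nearest measured gene on each side of Pfdn4, the 5 genes most like it, and up to 4 members of each list with the highest mean TPM. Tubb6 and the genes that overlap members or share sequence with them were named after their values were seen. Gene symbols were matched for 54079 of 54146 gene identifiers. Coordinates are those of a GENCODE annotation of GRCm38, a later release than the authors used, joined by identifier without its version. No protein sequence was given, so subunit proteins were not compared. Columns of other samples in the files used numbered 0.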

Additional observations from a re-analysis of the deposited data

Results flagged for a closer look

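Of the 36 groups of values tested for a sample far from the others (TPM, normalised counts and effective length of the 6 genes in each group), 3 held one, and chance alone gives about 1 in 20. Pfdn2 was at 138.28 TPM in control replicate 4, above the other controls at 78.6 to 99.58 TPM. Pfdn4 was at 2.06 TPM in mutant replicate 3, below the other mutants at 4.84 to 5.83 TPM, and that value rests on 7 counts. The effective length of Vbp1 was 1515.07 bases in mutant replicate 2, below the other mutants at 1520.95 to 1521.07 bases.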

How the results depend on the processing

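The number of genes called, 151 with DESeq2, was 32 with edgeR, 17 with limma on log2(TPM + 1), 12 with a pseudocount of 0.1, 12 with every gene of any TPM kept, 51 without the batch term, 78 in batch 1 alone and 48 in batch 2 alone. It ran from 90 to 265 when 1 embryo was left out, with 265 without control replicate 2, 90 without mutant replicate 2 and 91 without mutant replicate 5. The fall of Pfdn4 ran from -3.79 to -2.91 over the 24 alternatives, the smallest being -2.91 in batch 1 alone. These refit the embryos on which the set was chosen, so they describe the size of the fall and do not support its direction. A minimum mean normalised count of 100 gave no value for Pfdn4, whose mean was 92.6. None of the other 5 subunits was called in any alternative of the mutant against control comparison, and Pfdn2 and Pfdn6 stayed above 0 in all 25. Pfdn1 turned to -0.034 in batch 1 alone. Vbp1 turned to -0.35 in batch 2 alone and -0.055 with Xist and Y-linked covariates. Without 1 embryo Vbp1 ran from -0.11 to 0.11, Pfdn5 from -0.031 (without control replicate 2) to 0.13, and the interaction of Pfdn5 from -0.23 to 0.098.

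In the batch comparison Pfdn1 passed the threshold with a minimum of 10 counts in 5 libraries (-0.58, adjusted p = 0.0469) and Pfdn5 with that minimum (-0.42, adjusted p = 0.0460) and with effective length as an offset (-0.60, adjusted p = 0.00666). Without 1 embryo Pfdn1 ran from -0.74 to -0.46, passing also without control replicate 6 (-0.65), and Pfdn5 from -0.51 to -0.34. With limma the batch differences of Pfdn2 turned to 0.19 with a pseudocount of 1 or 0.1 and with any TPM kept, those of Pfdn6 to 0.0073, 0.0074 and 0.0073, and that of Pfdn4 to 0.0013 with a pseudocount of 0.1. The causes were not tested. The tubulin list had 0 calls with edgeR. No paired analysis was possible because the labels number each embryo separately and name no litters. Mutant counts of Pfdn4 from 7 to 25 limit how finely its remaining level can be read.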
